A study of Drosophila melanogaster with 4 samples.

Results

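The genes described here encode the mitochondrial ribosome and the respiratory chain, and they were measured in heads of male Drosophila melanogaster fed pilocarpine. Members were the genes with a value on at least 3 of the 4 arrays whose NCBI symbol begins with mRpL, mRpS, ND-, COX, UQCR-, ATPsyn or Sdh, together with Cyt-c1, RFeSP and GluRS-m. This gave 33 of the 1444 genes measured, of which 10 belong to the mitochondrial ribosome, 9 to complex I, 1 to complex II, 1 to complex III, 3 to complex IV and 8 to complex V, the ATP synthase, and GluRS-m stands alone. No value on 3 arrays was found for RFeSP or for any gene whose symbol begins with UQCR-.

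Treated flies were unmated Oregon-R wild-type males kept for 7 days on food that held pilocarpine at 1.5 mg/ml, and untreated flies were unmated Oregon-R males kept for the same time on normal food. Pilocarpine activates muscarinic acetylcholine receptors. At the start the males were 3 to 4 days old, in vials of 30 flies, and RNA came from pools of heads of 4 vials each, 8 pools in all, so no value belongs to a single fly. A treated pool and the untreated pool run in parallel with it were hybridised together on each of the 4 arrays, with the treated RNA in Cy5 on replicates 1 and 2 and in Cy3 on replicates 3 and 4. Spots with a value numbered between 4430 and 6392 of 27648 per array, and the number of arrays limits the precision of every value.

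All values below are log2 ratios, pilocarpine over normal food, given relative to the median of the probes on the same array, so that 0 is the typical probe and 1 is a 2-fold higher level. The labels give the dye of each RNA but not the numerator of the deposited ratio. The ratio was read as Cy5 over Cy3, the GenePix default, which turns the sign of replicates 3 and 4; this is called the likely direction and is not settled. In the other direction, in which the deposited ratio already is pilocarpine over normal food on every array, replicates 3 and 4 have the opposite sign, whereas replicates 1 and 2 are the same in both. Array medians before this centring lay between -0.48 and -0.14.

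Mitochondria carry their own ribosomes, which are built from proteins encoded in the nucleus around RNAs encoded in the mitochondrial genome, and which make a few core subunits of the respiratory chain. Complexes I to IV pass electrons from NADH and succinate to oxygen and, apart from complex II, pump protons; complex V lets the protons flow back and makes ATP. Photoreceptors and synapses of the fly head use much of this ATP, and muscle is also dense in mitochondria. In RNA from whole heads, fewer cells of a type and less RNA per cell cannot be told apart.

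The respiratory chain was better represented among the measured genes than the mitochondrial ribosome. The authors kept a spot where it was detectable above background, uniform, not saturated and not flagged as bad, and these criteria do not use the difference between the treatments. For complex V 8 of the 10 genes listed on the array were measured (80%), for complex IV 3 of 5 (60%) and for complex I 9 of 18 (50%). For the mitochondrial ribosome 10 of 48 listed genes were measured (20.8%), close to the 1444 of 6793 over all listed genes (21.3%). Complex II had 1 of 6 and complex III 1 of 2. Every member with any value had one on at least 3 arrays, and 25 of the 33 had one on all 4. All 8 members on 3 arrays lacked replicate 2, the array with the fewest spots, and 4 of these belong to the mitochondrial ribosome.

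**Figure D1:**
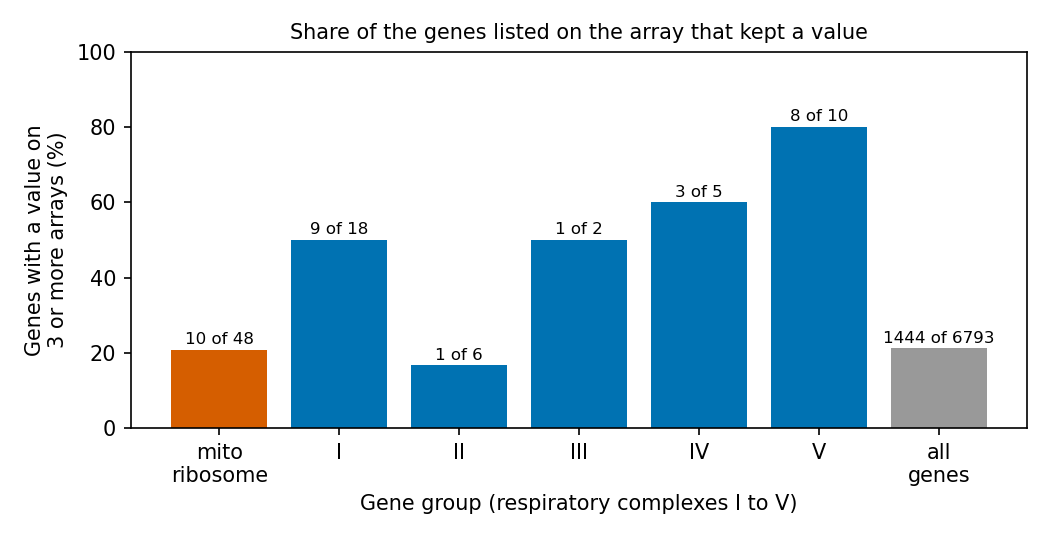
Bars give, for the mitochondrial ribosome, complexes I to V and all genes, the percentage of genes listed on the array that had a value on 3 or more arrays, with the counts above the bars. Complex V reaches 80%, whereas the mitochondrial ribosome, at 20.8%, lies beside all genes at 21.3%.

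Neither the mitochondrial ribosome nor the respiratory chain held a gene that passed the test in either direction. In the likely direction 0 of the 33 members passed as higher and 0 as lower (limma, Benjamini-Hochberg adjusted over all 1444 genes, threshold 0.05), beside 0.139% and 0% of all genes. In the other direction 0 members passed as well, beside 0% of all genes as higher and 0% as lower. Before adjustment 2 members had a p under 0.05 in the likely direction, mRpS34 and ND-13B, beside 7.41% of all genes, and 3 had one in the other direction, GluRS-m, mRpL18 and mRpS31, beside 8.73%; both shares are close to the background. Without replicate 1 mRpS34 passed, and without replicate 3 both mRpS34 and ND-13B did, as described below for each gene.

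The members as a whole stayed near the median of the array. Their median log2 ratio was -0.02 in the likely direction, against -0.01 over all genes, and 12 of 33 lay above 0, beside 48.5% of all genes. In the other direction the median was -0.03, against 0.00 over all genes, with 16 of 33 above 0, beside 50.1%. For 31 of the 33 members the 95% interval of the log2 ratio lay between -1 and 1 in the likely direction, so that a 2-fold difference was outside it; the exceptions were mRpS34 and ND-13B. In the other direction 32 did, with mRpS34 as the exception. These intervals are limma's and are not adjusted for the number of genes. The median SD over arrays was 0.30 for the members and 0.30 for all genes in the likely direction, and 0.21 and 0.27 in the other.

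**Figure D2:**
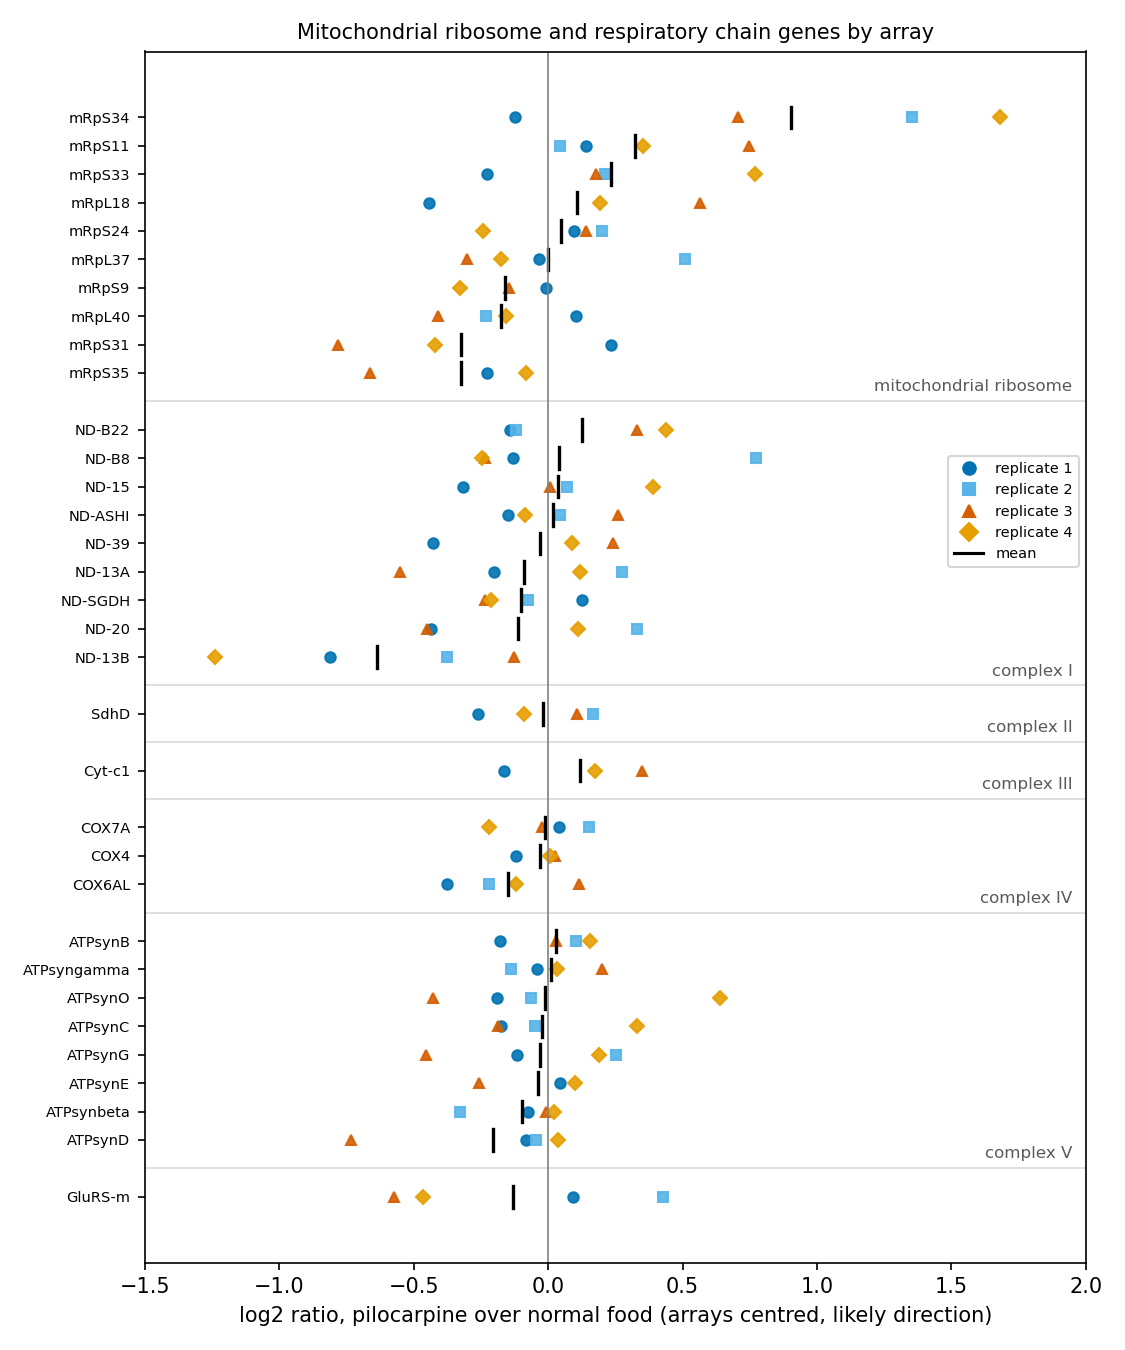
Each row is a gene, each symbol its log2 ratio of pilocarpine over normal food on one array (centred, likely direction), and the black bar its mean; replicates 3 and 4 change sign in the other direction. The means lie between -0.64 for ND-13B and 0.90 for mRpS34, and most genes have arrays on both sides of 0.

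Within the mitochondrial ribosome, mRpS34 stood far above the other genes in the likely direction. Its product, a small-subunit protein, has no bacterial counterpart and in mammals is needed for a stable small subunit. Its log2 ratio was -0.12 on replicate 1, 1.35 on replicate 2, 0.71 on replicate 3 and 1.68 on replicate 4. All arrays but replicate 1 were thus high, and replicate 1 was slightly below its array's median. The mean was 0.90 ± 0.80 (SD, n = 4), a 1.87-fold higher level, which did not pass (limma adjusted p = 0.292), and 99.6% of all genes had a lower mean. Both spots of the gene differed by at most 0.12 on any array, less than the spread between arrays. With replicates 3 and 4 turned, the mean was -0.29 ± 1.27 (SD, n = 4; limma adjusted p = 0.875), with replicate 2 at 1.35 and replicate 4 at -1.68. Without replicate 1, the only array on which it was not high, the gene passed in the likely direction at 1.25 (limma adjusted p = 0.0282). Without replicate 3 it passed at 0.97 (limma adjusted p = 0.000756). In that fit limma used the same pooled spread for every gene. The p-value thus does not measure the spread of mRpS34, whose remaining arrays ran from -0.12 to 1.68. Without replicate 2 or replicate 4 the gene was at 0.75 and 0.64 and did not pass.

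The remaining 9 ribosomal genes spread to both sides of 0. The small-subunit gene mRpS11, whose product has a bacterial counterpart, was above 0 on all 4 arrays in the likely direction, at 0.14, 0.04, 0.75 and 0.35 on replicates 1 to 4, with a mean of 0.32 ± 0.31 (SD, n = 4; limma adjusted p = 0.749). On replicate 4 its 2 spots disagreed, at 0.69 and 0.01. Read in the other direction, its mean was -0.23 and the arrays disagreed in sign.

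Lowest in the likely direction were mRpS35 and mRpS31, both small-subunit proteins specific to mitochondria and both without a value on replicate 2. For mRpS35 the values were -0.23, -0.66 and -0.08 on replicates 1, 3 and 4, all below 0, with a mean of -0.32 ± 0.30 (SD, n = 3; limma adjusted p = 0.825), and the mean in the other direction was 0.17. For mRpS31 replicate 1 was at 0.23, replicate 3 at -0.78 and replicate 4 at -0.42, which gives a mean of -0.32 ± 0.51 (SD, n = 3) in the likely direction. Turned to the other direction, all 3 arrays were above 0 and the mean was 0.48 ± 0.28 (SD, n = 3; limma adjusted p = 0.560).

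The large-subunit gene mRpL18 did the reverse of mRpS31. On replicates 1, 3 and 4 it was at -0.44, 0.57 and 0.19, a mean of 0.11 ± 0.51 (SD, n = 3) in the likely direction and of -0.40 ± 0.19 (SD, n = 3; limma adjusted p = 0.560) in the other, where all 3 arrays were below 0. The 2 spots of mRpL18 disagreed on replicate 3, at 0.24 and 0.89. With the first spot of each pair its mean was 0.02 in the likely direction. The other ribosomal genes were mRpS33 at 0.23, mRpS24 at 0.05, mRpS9 at -0.16 and mRpL40 at -0.17 in the likely direction. For mRpL37 the mean was within 0.01 of 0, and it was above 0 on replicate 2 alone, at 0.51.

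Small-subunit genes had a median of 0.05 (n = 7 genes) and large-subunit genes of 0.00 (n = 3 genes) in the likely direction, and of 0.10 and 0.11 in the other. The 4 proteins with bacterial counterparts (mRpS9, mRpS11, mRpS24 and mRpL18) had a median of 0.08, and the 6 specific to mitochondria one of -0.09; in the other direction these were -0.06 and 0.14. The medians differed more by the presence of a value on replicate 2. The 6 ribosomal genes on all 4 arrays had a median of 0.14, whereas the 4 that lacked replicate 2 had one of -0.24; in the other direction these were -0.06 and 0.16.

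Complex I held ND-13B, the lowest of the 33 members in the likely direction, which encodes a subunit of the arm that reaches into the matrix and transfers electrons from NADH to ubiquinone. It was at -0.81 on replicate 1, -0.38 on replicate 2, -0.13 on replicate 3 and -1.24 on replicate 4. All 4 arrays were below 0 in the likely direction, and replicates 1 and 2, whose sign is the same in both directions, were both below 0. The mean in that direction was -0.64 ± 0.49 (SD, n = 4), a 1.56-fold lower level, which did not pass (limma adjusted p = 0.329), and only 0.139% of all genes had a lower mean. Its paired spots differed by at most 0.20. When turned, replicates 3 and 4 stood at 0.13 and 1.24, and the mean was 0.05 ± 0.88 (SD, n = 4; limma adjusted p = 0.977), with 59.2% of all genes lower; the lowest member was then mRpL18. Without replicate 3, its smallest value, the gene passed as lower in the likely direction, at -0.81 (limma adjusted p = 0.0103); without replicates 1, 2 or 4 it lay between -0.73 and -0.44 and did not pass. In the fit without replicate 3 limma used one pooled spread for all genes, also for mRpS34 and ND-13B, and 18 genes passed in all.

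The other 8 complex I genes lay between -0.11 and 0.13 in the likely direction. Highest was ND-B22, a subunit of the membrane arm, which pumps the protons, at -0.14, -0.12, 0.33 and 0.44 on replicates 1 to 4 and with a mean of 0.13 ± 0.30 (SD, n = 4). Its arrays split by dye orientation, so that in the other direction all 4 were below 0, with a mean of -0.26 ± 0.15 (SD, n = 4; limma adjusted p = 0.593). The matrix-arm subunit ND-B8 was at 0.77 on replicate 2 and between -0.25 and -0.13 on the others.

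Another matrix-arm gene, ND-20, which encodes the subunit that passes electrons to ubiquinone, was at -0.11, and ND-13A and ND-39 of the same arm were at -0.09 and -0.03. In the membrane arm ND-SGDH was at -0.10, ND-ASHI at 0.02 and ND-15 at 0.04. The 2 probes of ND-SGDH agreed in the sign of their means, at -0.05 ± 0.12 and -0.15 ± 0.31 (SD, n = 4 for each), but were of opposite sign on replicates 1 and 2. The matrix arm had a median of -0.09 (n = 5 genes) and the membrane arm one of 0.03 (n = 4 genes); in the other direction these were 0.06 and -0.12.

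Of complex II, the succinate dehydrogenase that the citric acid cycle shares with the respiratory chain, SdhD was measured, one of its membrane anchors. It was at -0.26, 0.17, 0.11 and -0.09 on replicates 1 to 4, on both sides of 0, with a mean of -0.02 ± 0.20 (SD, n = 4) and of -0.03 in the other direction. Complex III was represented by Cyt-c1, the haem subunit that hands electrons to cytochrome c. On replicates 1, 3 and 4 it was at -0.16, 0.35 and 0.17, a mean of 0.12 ± 0.26 (SD, n = 3) in the likely direction. In the other all 3 arrays were below 0, at a mean of -0.23 ± 0.10 (SD, n = 3; limma adjusted p = 0.699).

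Complex IV, cytochrome c oxidase, which reduces oxygen, was represented by 3 small nuclear-encoded subunits. The structural subunit gene COX7A was at 0.04, 0.15, -0.02 and -0.22 on replicates 1 to 4, which is near 0 in the likely direction (-0.01 ± 0.16; SD, n = 4) and above 0 on all 4 arrays in the other (0.11 ± 0.09; SD, n = 4). Its paired spots were of opposite sign on replicates 1 and 3. COX6AL, by its symbol a relative of the COX6A subunit, was at -0.37, -0.22, 0.11 and -0.12, below 0 on 3 of 4 arrays, with a mean of -0.15 ± 0.20 in the likely direction and of -0.15 ± 0.21 in the other (SD, n = 4). COX4, also a structural subunit, varied least of the 33 members, with -0.12, 0.02 and 0.01 on replicates 1, 3 and 4 (SD 0.08, n = 3); 4.02% of all genes had a lower SD.

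The ATP synthase genes stayed near 0. All 8 had means between -0.21 and 0.03 in the likely direction and between -0.12 and 0.14 in the other, and none had a 95% interval reaching beyond -0.57 or 0.53 in either. The catalytic subunit gene ATPsynbeta was at -0.08, -0.33, -0.01 and 0.02 on replicates 1 to 4, with a mean of -0.10 ± 0.16 (SD, n = 4). The rotor gene ATPsyngamma was at -0.04, -0.14, 0.20 and 0.03, near 0 in the likely direction (0.01 ± 0.14; SD, n = 4) and below 0 on all arrays in the other (-0.10 ± 0.08; SD, n = 4). Its paired spots were of opposite sign on replicates 1, 2 and 4, and on replicate 2 they were at -0.46 and 0.18.

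Lowest of complex V in the likely direction was ATPsynD, a gene of the peripheral stalk that holds the catalytic head still, at -0.08, -0.04, -0.73 and 0.04 and with a mean of -0.21 ± 0.36 (SD, n = 4; limma adjusted p = 0.914). Replicate 3 set that mean, and without it the mean was -0.03; turned, ATPsynD was the highest of complex V, at 0.14. Highest in the likely direction was ATPsynB of the same stalk, at -0.18, 0.10, 0.03 and 0.16, a mean of 0.03 ± 0.15 (SD, n = 4), and it was at -0.065 when turned. ATPsynO, also of the stalk, was at -0.01 and spread from -0.43 on replicate 3 to 0.64 on replicate 4. The proton-carrying ring gene ATPsynC was at -0.02, and ATPsynE and ATPsynG, which join synthases into dimers, were at -0.04 and -0.03. For ATPsynG the 2 probes had means of 0.01 on 4 arrays and -0.16 on 3.

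GluRS-m, the mitochondrial synthetase that charges transfer RNA with glutamate for the mitochondrial ribosome, split by dye orientation. It was at 0.09, 0.43, -0.57 and -0.47 on replicates 1 to 4, above 0 on replicates 1 and 2 and below 0 on replicates 3 and 4. On replicate 1 its paired spots were at 0.20 and -0.02, and on replicate 4 they were further apart, at -0.75 and -0.18. The mean was thus -0.13 ± 0.47 (SD, n = 4; limma adjusted p = 0.957) in the likely direction and 0.39 ± 0.21 (SD, n = 4; limma adjusted p = 0.560) in the other, where 97.1% of all genes had a lower mean.

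**Figure D3:**
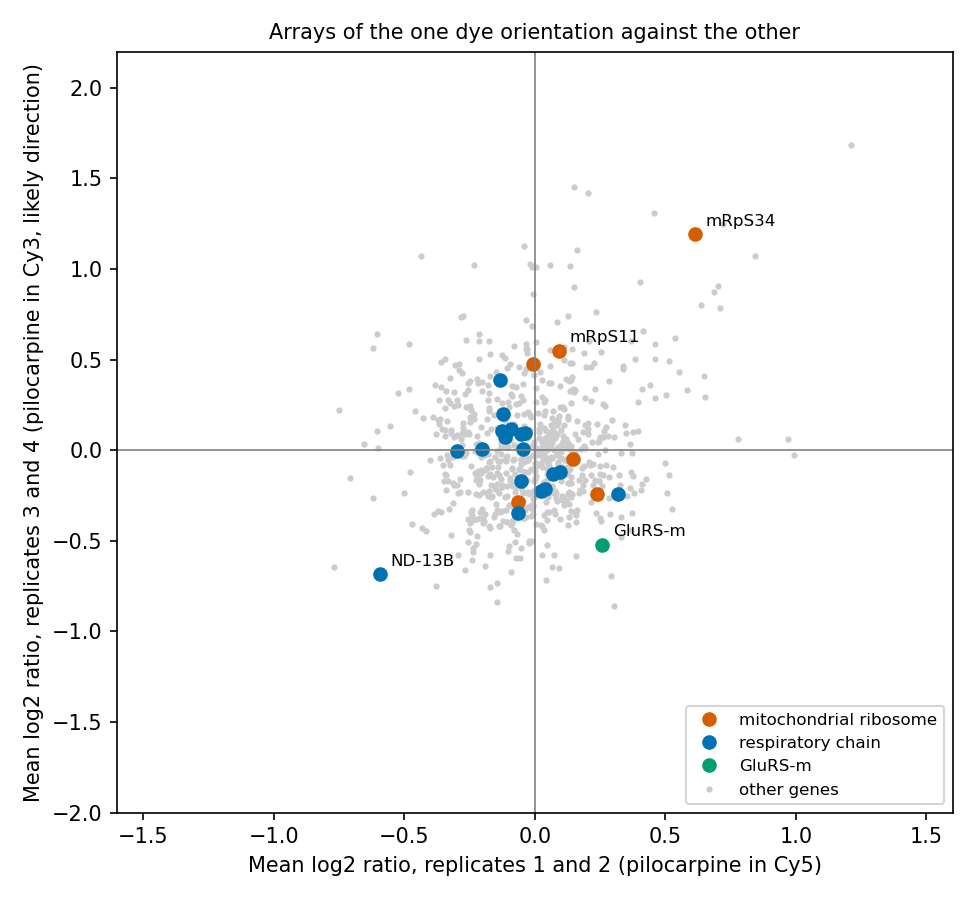
Each point is a gene measured on all 4 arrays, with its mean log2 ratio on replicates 1 and 2 on the horizontal axis and on replicates 3 and 4 (likely direction) on the vertical one; the other direction mirrors the plot about its horizontal line. mRpS34 lies at 0.61 and 1.19, ND-13B at -0.59 and -0.68, and GluRS-m at 0.26 and -0.52, while most respiratory chain genes lie within the grey cloud of other genes.

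Few members had the same sign on all 4 arrays, as was the case for all genes. In the likely direction 1 of the 25 members on all 4 arrays, mRpS11, was above 0 on all of them, beside 7.35% of all genes, and 1, ND-13B, was below 0 on all, beside 6.82%. Turned, COX7A and GluRS-m were above 0 on all 4, beside 5.88%, and ATPsyngamma and ND-B22 below, beside 9.09%. Other counts do not depend on the direction. On both replicates 1 and 2, 4 of 25 members were above 0, beside 19.5% of all genes, and 8 were below, beside 26.2%, of which 5 belong to complex V. On replicates 3 and 4, 21 of 33 members had the same sign, beside 61.5%.

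Replicate 1 was the array on which the members lay lowest. There 8 of 33 members were above 0, beside 49.9% of all genes; on replicate 2 it was 15 of 25, beside 45.2%, and in the likely direction 15 of 33 on replicate 3, beside 47.5%, and 19 of 33 on replicate 4, beside 49.9%. Of the respiratory chain 3 of 22 genes were above 0 on replicate 1, and of the ribosome 4 of 10. Complex V differed between arrays, with 1 of 8 genes above 0 on replicate 1, 2 of 7 on replicate 2 and, in the likely direction, 2 of 8 on replicate 3 and 8 of 8 on replicate 4; turned, these last counts were 6 of 8 and 0 of 8. Its spread over genes on replicate 1 was small (SD 0.08 over 8 genes, against 0.27 over all genes).

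In the likely direction the mitochondrial ribosome differed from every respiratory complex by less than the SD between arrays. In the other direction its differences from complexes II and III and from the whole chain were larger than that SD. Its median was -0.02, 0.21, 0.00 and -0.12 on replicates 1 to 4 in the likely direction, and that of the 22 respiratory chain genes was -0.16, 0.00, -0.02 and 0.06. The difference was 0.04 ± 0.17 (SD, n = 4 arrays) and above 0 on 3 arrays; in the other direction it was 0.13 ± 0.10, also above 0 on 3. No test was made of these medians, since the members were chosen with results known.

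**Figure D4:**
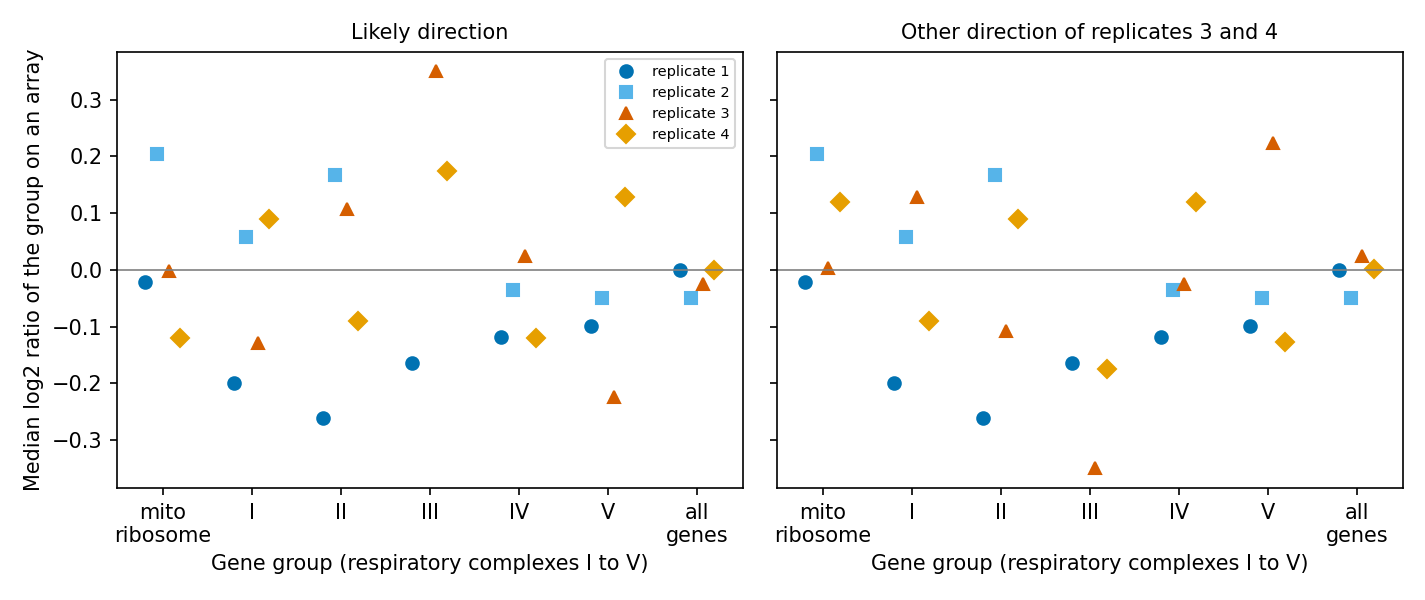
Symbols give the median log2 ratio over the genes of each group on each array, in the likely direction (left) and with replicates 3 and 4 in the other direction (right). Complexes II and III are 1 gene each, and all group medians lie between -0.35 and 0.35, both of them values of Cyt-c1.

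Against complex I the ribosome's median was higher by 0.18, 0.15 and 0.13 on replicates 1 to 3 and lower on replicate 4 (-0.21), a mean difference of 0.06 ± 0.18 (SD, n = 4) in the likely direction and of 0.10 ± 0.15 in the other. With complex II the difference was 0.03 ± 0.15 and 0.10 ± 0.10 in the likely and in the other direction, in the other above 0 on all 4 arrays; this rests on SdhD alone. For complex III, which rests on Cyt-c1 and 3 arrays, it turned sign with the direction, at -0.17 ± 0.27 in the likely one and 0.26 ± 0.11 in the other (SD, n = 3). For complexes IV and V it was 0.08 ± 0.12 and 0.08 ± 0.23 in the likely direction and 0.09 ± 0.11 and 0.09 ± 0.22 in the other (SD, n = 4). Single arrays moved these small differences by over 1.5 times. With each array left out in turn, in the likely direction, the difference ran between 0.02 and 0.15 for complex I, -0.32 and -0.08 for complex III, 0.02 and 0.11 for complex IV, and 0.02 and 0.18 for complex V. For complex II it ran between -0.03 without replicate 1 and 0.08 without replicate 3, and with the first spot of each pair it was -0.01. For complexes I and V the highest value was that without replicate 4, and for complexes IV and V the lowest was that without replicate 2. Without mRpS34 the ribosome's difference in the likely direction was 0.02 from complex I, -0.01 from complex II, -0.22 from complex III, 0.03 from complex IV and 0.03 from complex V.

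**Figure D5:**
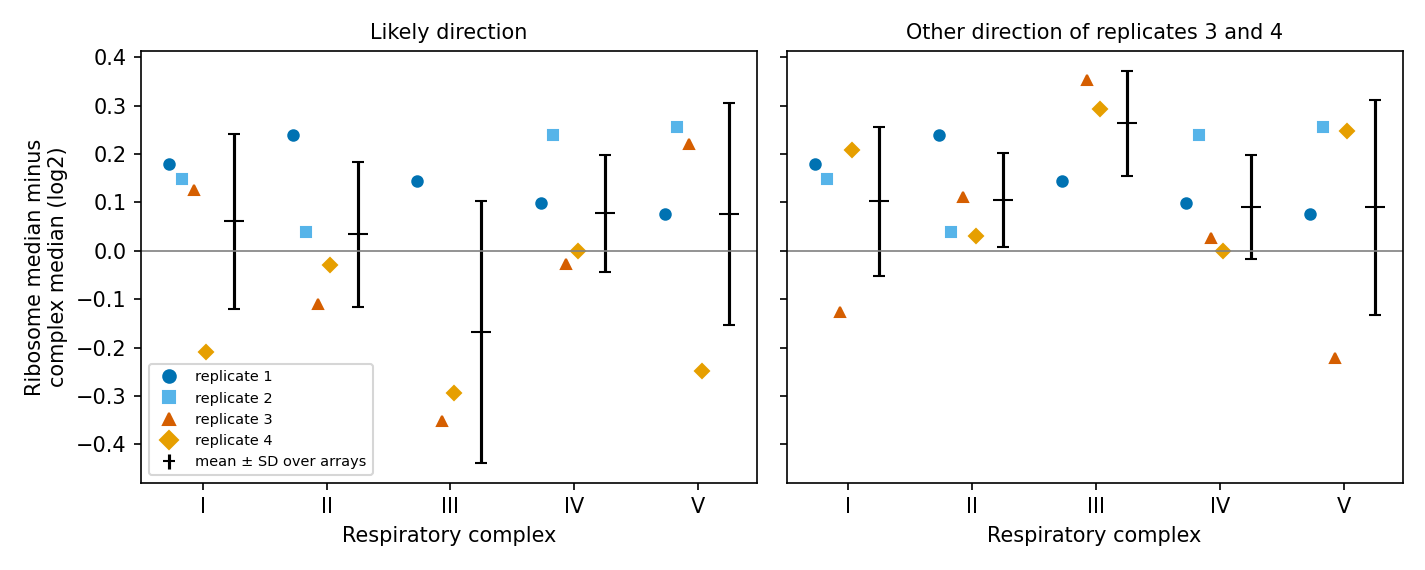
Symbols give, for each array, the median log2 ratio of the ribosomal genes minus that of the genes of complexes I to V, in the likely direction (left) and in the other (right), with the mean and SD over arrays beside them. The mean differences lie between -0.17 and 0.08 on the left and between 0.09 and 0.26 on the right.

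The ribosomal genes spread more widely than the respiratory ones on 3 arrays, a difference that was not tested. On replicates 2, 3 and 4 the SD over genes was 0.55, 0.55 and 0.64 for the ribosome, against 0.27, 0.30 and 0.36 for the respiratory chain; on replicate 1 they were 0.21 and 0.20. On replicate 2 this rested on mRpS34, without which the ribosome's SD was 0.27. On replicates 3 and 4 the ribosome's SD without that gene was 0.53 and 0.38. The respiratory SD on replicate 4 includes ND-13B at -1.24. Without ND-13B the SD of complex I on that array went from 0.50 to 0.25. Between the 2 arrays with the treated RNA in Cy3, which share a direction, ribosomal genes correlated at r = 0.69 over 10 genes and respiratory chain genes at -0.03 over 22, across genes, which share their arrays and are not independent. Between replicates 1 and 2 these were -0.54 over 6 genes and 0.20 over 18. All genes correlated at 0.40 between replicates 3 and 4 and at -0.05 between replicates 1 and 2. Across dye orientations, in the likely direction, replicate 1 correlated over all genes at -0.12 with replicate 3 and -0.24 with replicate 4. Replicate 2 did so at 0.19 and 0.40. These values across orientations change sign in the other direction. Paired spots of one probe differed by a median of 0.110 for the members and 0.125 for all genes.

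Other mitochondrial genes were read from lists that do not hold all of them. Few of the listed genes had values, and none passed in either direction. Of listed genes for mitochondrial gene expression, which include other mitochondrial synthetases and translation factors, 17 were on the array and 0 were measured. The gene mRRF2, outside that list, had values on all 4 arrays. Its mean was 0.46 on replicates 1 and 2 and, in the likely direction, 0.29 on replicates 3 and 4. Among 6 listed genes of protein import and chaperones 4 were measured, Tom20, Tom70, Tim9a and Tim10, with means between 0.01 and 0.07 in the likely direction. Roe1 and ttm50, outside that list, lay further from 0. Roe1 had a mean of -0.43 on replicates 1 and 2 and of -0.43 on replicates 3 and 4 in the likely direction. For ttm50 these were 0.39 and 0.11. The COX6A subunit gene levy was at -0.16 ± 0.24 (SD, n = 3), Bcs1, whose yeast counterpart inserts the iron-sulphur protein into complex III, at -0.20 ± 0.52 (SD, n = 4), Idh3a of the citric acid cycle at -0.24 ± 0.35 (SD, n = 4) and the phosphate carrier gene Mpcp2 at -0.11 ± 0.24 (SD, n = 4). No antioxidant or biogenesis regulator of the lists was measured.

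Cytosolic ribosomal protein genes, whose products translate nuclear-encoded mRNAs, were measured for 15 genes, of which none passed. In the likely direction the means of the 10 mitochondrial ribosomal genes lay between -0.32 and 0.90, against -0.15 to 0.17 for the cytosolic ones, with medians of 0.02 and 0.05. Turned, the mitochondrial means lay between -0.40 and 0.48, against -0.14 to 0.19 for the cytosolic ones, and the order of the medians was the reverse, at 0.10 and 0.04. The mitochondrial range was thus the wider in both directions, a difference that was not tested.

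Markers of mitochondria-rich and other tissues were also measured. Photoreceptor markers had values for 4 of 10 genes (trpl, Arr1, inaD and inaC), with a median of -0.01 in the likely direction and 0.15 in the other, and neuronal markers for 0 of 8, of which 2 were listed on the array. Ratios hold no level, so the tissue was checked only through which spots were detectable. Also detectable were Gs2 of glia, Col4a1 of haemocytes, ocn of testis, and Jon25Biii and Mal-A2 of gut. The testis marker ocn was at 0.52 in the likely direction and 0.60 in the other, and passed in neither. The 7 measured of 13 muscle markers had a median of -0.12 and array medians of -0.05, -0.36, -0.09 and -0.08 on replicates 1 to 4 in the likely direction, and a median of -0.09 in the other. The 7 measured of 11 fat body markers had a median of 0.14 in the likely direction and of -0.24 in the other. Their array medians in the likely direction were -0.10, 1.35, 0.39 and 0.45 on replicates 1 to 4, and those of replicates 3 and 4 change sign when turned. On replicate 2 the median rests on 2 markers, apolpp at 1.94 and Desat1 at 0.75, since the other 5 have no value there. One marker, apolpp, was among the 2 genes of the whole table that passed in the likely direction, and it was at -0.24 in the other. In the likely direction both the fat body medians and mRpS34 were below 0 on replicate 1 and above 0 on replicates 2 to 4. The medians rest on different markers, however. On replicate 1 apolpp and Desat1 were above 0, at 0.48 and 0.625. The markers below 0 there, FASN1, Yp2, Lsd-2 and sxe2, have no value on replicate 2. Only apolpp and Desat1 had a value on all 4 arrays, and both were above 0 on each of them in the likely direction. Like mRpS34, apolpp was lowest on replicate 1 and next lowest on replicate 3, at 1.53. Desat1 was lowest on replicate 3, at 0.39. The part of these markers in the values of mRpS34 was not tested.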

How the data were processed

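The authors deposited one log2 ratio per spot and array, set between the 2 channels. Per the labels, GenePix Pro 6.0 quantified the slides and Acuity 4.0 normalized the ratios, and spots were filtered by the authors on saturation, flags, uniformity and signal over background. The log base was read from a ceiling of 16.61, the log2 of 100000, whose 11 cells were dropped. Adjacent spots of one probe and probes of one gene were averaged, and each array was centred on the median over its probes (3236 in all). The platform annotation lists 1 gene for 1510 probes, several for 13 and none for 1713, and all 33 members matched the NCBI gene table by ID.

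Each gene with a value on 3 or more arrays entered a limma fit (version 3.58.1, R 4.3.3; mean against 0, two-sided, Benjamini-Hochberg over 1444 genes). On simulated data with an SD equal for all genes, 100% of 100 genes changed by 1 on the log2 scale were recovered. In the data the SD over arrays differed between genes, from 0.08 for COX4 to 0.80 for mRpS34 among the members. The share recovered in the simulation therefore does not give the share that would be found in these data. Named were members with an unadjusted p under 0.05 or one sign on 4 arrays in either direction, and the highest and lowest of each group of 3 or more. The members and lists were chosen with earlier results of these data known. The arrays are separate pools of flies, per the labels. Alternatives were the direction, centring, filter, probe and spot choice, ceiling, dye covariate, robust fit and leaving out each array.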

Additional observations from a re-analysis of the deposited data

Results flagged for a closer look

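The 25 members on all 4 arrays, and the medians and differences of groups on 4 arrays, 34 sets of values in all, were searched for an array far from the other 3, and 3 were found; chance alone gives about 1 in 20 sets. ND-B8 was at 0.77 on replicate 2, far above the other 3 arrays. ATPsynD was at -0.73 on replicate 3, far below the others. The difference between the medians of the mitochondrial ribosome and complex I was -0.21 on replicate 4, against 0.13 to 0.18 on the others. These hold for the likely direction.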

How the results depend on the processing

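No paired analysis was possible because there is a single group, in which each array already pairs treated with untreated RNA. In the other direction of replicates 3 and 4, 0 genes passed (limma; 126 at an unadjusted p under 0.05), Cyt-c1, the one gene of complex III, was at -0.23 and the ribosome's difference from it at 0.26, and 12 named genes changed sign: ATPsynB to -0.065, ATPsynD to 0.14, ATPsyngamma to -0.10, COX7A to 0.11, GluRS-m to 0.39, ND-13B to 0.046, ND-B22 to -0.26, mRpL18 to -0.40, mRpS11 to -0.23, mRpS31 to 0.48, mRpS34 to -0.29 and mRpS35 to 0.17. Apart from leaving out arrays, given below, the other alternatives kept the sign of the named genes except COX7A. That gene was at 0.010 without centring and 0.0064 with arrays centred on genes. Of all genes 2 passed in the fit reported, 1 with genes on all 4 arrays, 1 with 1 probe per gene, 1 with the first spot of each pair and 4 with the dye covariate. With genes on all 4 arrays, and with the dye covariate on the same genes, the ribosome's difference from complex IV was 0.20, with COX4 and 4 ribosomal genes no longer included. Leaving out each array in turn gave 0 to 18 genes (0 without replicate 2 or 4, with 66 and 60 at an unadjusted p under 0.05) and 0 to 2 members, and sign changes for ATPsyngamma (-0.050 to 0.062), GluRS-m (-0.32 to 0.017), mRpL18 (-0.13 to 0.38), ATPsynB (-0.016 to 0.10) and COX7A (-0.067 to 0.056). The ribosome's difference from complex II also changed sign, to -0.03 without replicate 1 and to -0.01 with the first spot of each pair. Under every other alternative 0 members passed (limma; 2 to 4 at an unadjusted p under 0.05). The number of arrays limits precision: the 95% intervals of complex V genes reached -0.57 and 0.38 in the likely direction. Complex III and Cyt-c1 have no value with genes on all 4 arrays or with the dye covariate.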
